A study of Homo sapiens with 4 samples.

Results

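The genes described here are 8 keratins and vimentin, proteins that polymerise into the intermediate filaments of the cytoplasm. They were chosen by name as the rows of a gene expression table for KRT7, KRT8, KRT18, KRT19, KRT20, KRT23, KRT80, KRT10 and VIM, which is 9 of 58735 rows, and each name matched a single row. RNA from HCT116 and LOVO, both labelled as wild-type colon cancer cells, had been sequenced in 2 growth forms, adherent cells and spheroids, with 1 library in each of the 4 groups. Adherent cells grew untreated in RPMI-1640 with fetal bovine serum. Spheroids, by the study's methods, formed in ultralow attachment dishes in serum-free DMEM/F12 with B27, N2, bFGF and EGF, and the study's text adds oxaliplatin, a platinum drug. The labels give the spheroids a treatment of 1 mg/ml without naming an agent, while the study's text gives the oxaliplatin dose in μg/ml. Attachment, serum, growth factors and drug therefore changed together and cannot be told apart. Each cell line is a single established line, so neither stands for colorectal tumours in general.

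Keratins form obligate pairs of a type I and a type II chain, so that a filament needs both. KRT8 (type II) and KRT18 (type I) are the base pair of simple epithelia, including that of the intestine. KRT19 and KRT20 are type I chains of the intestinal lining and KRT7 is a type II chain of ductal epithelia. Vimentin is a type III protein that forms filaments by itself and is typical of mesenchymal cells. An antibody panel of KRT7 and KRT20 is in common use for assigning carcinomas to an organ, and colorectal carcinomas are typically KRT20 positive and KRT7 negative.

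The 4 libraries held between 15483569 and 20429147 reads on genes. Levels are given as FPKM, the fragments per kilobase of gene length scaled to library size. Comparisons between genes depend on the lengths used, and comparisons between libraries depend on the scaling. Other scalings moved some differences, as given below. No group had a replicate, and every 95% interval below covers the counting error of reads only. The labelled cell type was checked against 6 epithelial and intestinal markers (EPCAM, CDH1, CDX2, VIL1, CDH17, LGALS4). Their summed level was 121 and 114 FPKM in adherent HCT116 cells and HCT116 spheroids, but 1.13 and 1.67 FPKM in the libraries labelled LOVO, where EPCAM stood at 0.930 and 1.50 FPKM, CDH1 at 0.117 and 0.00805 FPKM, and CDX2 and VIL1 at 0 reads. The contrast rests on EPCAM, CDH1 and CDX2 (3.84 and 3.12 FPKM in HCT116), since VIL1, CDH17 and LGALS4 were under 1 FPKM in HCT116 too, with VIL1 at 6 and 11 reads. Of 6 fibroblast markers, 1 reached 1 FPKM in each HCT116 library against 4 and 5 in LOVO, with summed levels of 5.60, 16.1, 54.0 and 72.8 FPKM in adherent HCT116 cells, their spheroids, adherent LOVO cells and their spheroids. COL1A2 was at or under 3 reads in all 4 libraries, whereas LUM reached 31.4 and 50.4 FPKM in LOVO. COL3A1 stood at 0.811 FPKM in adherent and 5.13 FPKM in spheroid LOVO cells. Of 6 leukocyte and endothelial markers, at most 2 reached 1 FPKM in any library, with sums from 0.265 to 8.02 FPKM, and PTPRC and CD3E were at or under 3 reads in all 4. PECAM1 had 5 reads (0.0359 FPKM) in adherent LOVO cells and 992 reads (6.35 FPKM) in LOVO spheroids. The libraries labelled LOVO thus had little EPCAM, next to no CDH1 and no CDX2, which HCT116 had. LOVO is used below as the name of the label, and the part of this contrast in any difference between the lines was not tested.

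KRT8 was the most abundant type II keratin of HCT116. Its level was 571 FPKM in adherent cells and 418 FPKM in spheroids of HCT116, and 189 FPKM in adherent cells and 81.6 FPKM in spheroids of LOVO, which placed it 47th of all genes in both HCT116 libraries and 178th and 377th in LOVO. The order of the 4 libraries was the same for KRT18, its partner chain, at 253, 206, 122 and 98.8 FPKM. For both genes, neighbours in that order differed by more than counting error.

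KRT7 and KRT80, the other type II chains, had the reverse contrast between the lines. KRT7 stood at 6.53 and 5.56 FPKM in adherent HCT116 cells and HCT116 spheroids, and at 242 and 50.3 FPKM in the same forms of LOVO. KRT80, a type II keratin found in many epithelia, stood at 10.5, 3.80, 56.4 and 9.46 FPKM in the same order. Adherent LOVO cells were the highest library for both. For KRT80 the LOVO spheroids and the adherent HCT116 cells lay close together, with a log2 ratio of 0.15 (95% counting interval 0.01 to 0.29).

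KRT19, a small type I keratin without the usual tail domain, was by FPKM the most abundant member in HCT116 and a minor one in LOVO. Its level was 808 FPKM in adherent HCT116 cells and 543 FPKM in HCT116 spheroids, ranks 36 and 37 of all genes, against 14.9 FPKM in adherent and 4.85 FPKM in spheroid LOVO cells, ranks 3648 and 7952. The HCT116 libraries lay far above both LOVO libraries. By reads without length KRT8 led in HCT116 instead. It had 80076 reads in adherent cells and 48287 in spheroids, against 38478 and 21315 for KRT19.

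KRT20 and KRT23, type I genes that lie close together on chromosome 17, were detected almost wholly in HCT116. KRT20, the keratin of differentiated intestinal cells, stood at 0.930 FPKM (35 reads) in adherent HCT116 cells and 7.45 FPKM (231 reads) in HCT116 spheroids, with 1 and 2 reads in the adherent and spheroid libraries of LOVO. KRT23 stood at 4.31 FPKM (255 reads) and 29.2 FPKM (1423 reads) in HCT116, with 2 reads in each LOVO library. In both genes the HCT116 spheroids were the highest library, and the levels of the LOVO libraries could not be told apart at this depth.

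KRT10, a type I keratin best known from the upper layers of the skin, was the steadiest member. It stood at 24.6 and 22.1 FPKM in adherent and spheroid HCT116 cells, and at 28.7 and 17.8 FPKM in adherent and spheroid LOVO cells. VIM was close to undetected in HCT116, at 0.219 FPKM (23 reads) in adherent cells and 0.115 FPKM (10 reads) in spheroids, and stood at 39.4 FPKM (3645 reads) and 32.2 FPKM (3342 reads) in LOVO. The 2 HCT116 values for VIM did not differ beyond counting error, with a log2 ratio of spheroids to adherent cells of -0.92 (95% counting interval -2.16 to 0.20).

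**Figure D1:**
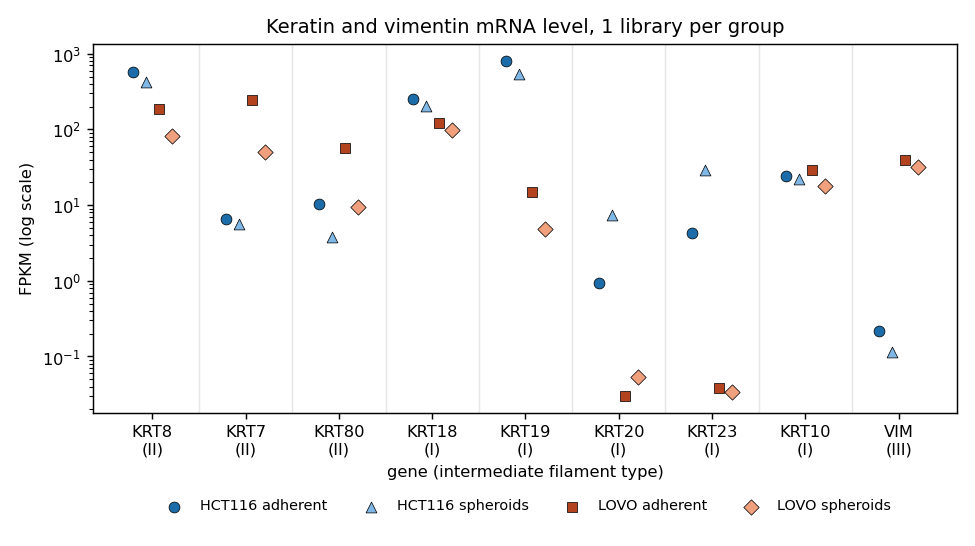
Level of each gene in FPKM on a log axis, with 1 point per library and genes grouped by filament type. KRT7, KRT80 and VIM have their highest point in adherent LOVO cells (242, 56.4 and 39.4 FPKM), while KRT8, KRT18 and KRT19 have theirs in adherent HCT116 cells and KRT20 and KRT23 in HCT116 spheroids.

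The stretches of DNA just before the start of 3 of these genes are shown because the genes span the patterns above: KRT20 as a member higher in HCT116 spheroids, VIM as a member that separated the lines, and KRT10 as the steadiest. They are the 250 bases upstream of each RefSeq start in GRCh38.p14, written 5′ to 3′ on the gene's strand, at chr17:40885243-40885492 (minus strand), chr10:17227991-17228240 (plus strand) and chr17:40822615-40822864 (minus strand). Capitals mark every match, on either strand, to 4 short motifs. They are the core of sites for CDX factors of the intestine, spelled TTTAT, the GC box of widely used promoters, spelled GGGCGG, the TATA box that places the start of transcription, spelled TATAAA, and the E box to which SNAI and ZEB repressors bind, spelled CACCTG. A match on the other strand reads as the reverse complement.
KRT20: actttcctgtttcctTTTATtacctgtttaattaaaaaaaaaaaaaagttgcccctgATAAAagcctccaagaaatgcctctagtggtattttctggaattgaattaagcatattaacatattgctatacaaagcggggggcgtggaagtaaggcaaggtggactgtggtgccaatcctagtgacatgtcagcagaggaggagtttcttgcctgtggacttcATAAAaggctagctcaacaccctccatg
VIM: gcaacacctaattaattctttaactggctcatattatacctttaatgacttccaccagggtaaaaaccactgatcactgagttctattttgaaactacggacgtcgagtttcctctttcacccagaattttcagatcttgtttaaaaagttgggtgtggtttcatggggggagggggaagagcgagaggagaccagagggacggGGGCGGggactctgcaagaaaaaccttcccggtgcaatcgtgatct
KRT10: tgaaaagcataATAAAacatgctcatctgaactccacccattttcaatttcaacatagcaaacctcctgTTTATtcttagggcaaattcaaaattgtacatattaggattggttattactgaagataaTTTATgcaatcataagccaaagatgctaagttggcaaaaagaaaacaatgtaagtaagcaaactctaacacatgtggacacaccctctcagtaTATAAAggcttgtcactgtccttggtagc
KRT20 held 3 matches to TTTAT, at 235, 193 and 28 bases before the start, and VIM held 1 match to GGGCGG, at 46 bases. KRT10 held 1 TATAAA at 29 bases and 4 matches to TTTAT, of which the one at 28 bases overlaps the TATAAA. The letters TTTAT were found in 32.7% of 35116 RefSeq promoters of the same length, GGGCGG in 42.6%, TATAAA in 10.7% and CACCTG, which none of the 3 holds, in 17.5%. These matches are letters only, and binding at them was not measured here. Of the members, 4 had a promoter in the table used, and KRT8, the fourth, held none of these letters.

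The first question of the design is how spheroids differed from adherent cells of the same line. In HCT116, KRT20 and KRT23 were the members higher in spheroids, and the other members were lower there, VIM within counting error. KRT20 was 8.01-fold higher (95% counting interval 5.59 to 11.8) and KRT23 was 6.77-fold higher (5.92 to 7.77). KRT80 was 2.76-fold lower (2.41 to 3.16), KRT19 1.49-fold lower (1.46 to 1.51) and KRT8 1.37-fold lower (1.35 to 1.38). KRT18, KRT7 and KRT10 were lower by 1.23-fold, 1.18-fold and 1.11-fold. On the scale of differences of log2(FPKM + 1), used for all comparisons across genes and smaller than the ratio for low genes, KRT20 and KRT23 lay 2.13 and 2.51 above the adherent cells. Both were past 2, as were 0.201% of the 14429 genes with a mean of at least 1 FPKM, and 21 and 7 of those genes lay further up. The study's methods set 2 for a log fold change from edgeR, together with a p-value limit that was not applied here. No member was lower past 2, where 0.506% of genes were. Past 1, 2 members were higher (2.19% of genes) and KRT80, at -1.26, was lower (3.33% of genes). All 9 members passed the filter of 1 FPKM. KRT20 did so only through its level in HCT116 spheroids, KRT23 only through HCT116 and VIM only through LOVO.

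In the libraries labelled LOVO, all 7 members with more than 3 reads were lower in spheroids than in adherent cells. KRT80 was 5.97-fold lower (95% counting interval 5.54 to 6.43) and KRT7 4.81-fold lower (4.65 to 4.97). KRT19 was 3.08-fold lower (2.64 to 3.60), KRT8 2.31-fold lower (2.26 to 2.37) and KRT10 1.62-fold lower (1.48 to 1.78). KRT18 and VIM were lower by 1.23-fold and 1.22-fold, the smallest of the 7 ratios. Of 5 fibroblast markers with more than 3 reads in a LOVO library, 2 were higher in the same spheroids by counting error, 2 lower and 1 undecided. Of 4 such leukocyte and endothelial markers, 2 were higher and 2 undecided. Over all genes 31.4% were higher and 31.3% lower by the same rule. COL3A1, of fibroblasts, had a log2 difference of 1.76 and PECAM1, of endothelial cells, 2.83, while COL1A1, of fibroblasts, had -0.62. The part of these markers in the lower keratin levels was not tested. KRT80 and KRT7 had log2 differences of -2.46 and -2.24, past the threshold of 2 as were 0.943% of genes, and no member was higher past it, where 1.81% of genes were. Past 1, 4 members were lower (KRT7, KRT8, KRT19 and KRT80) and none was higher, against 7.85% and 8.57% of genes. KRT20 and KRT23 had at most 2 reads in either LOVO library, so no fold is given for them. Their counting intervals did not exclude a difference like that in HCT116. With levels rescaled to TPM, a change of scale that moved the median of all genes by 0.15 in this comparison, the log2 differences of KRT18 and VIM shrank from -0.30 to -0.10 and from -0.28 to -0.09. In bulk RNA, fewer cells with a gene switched on and less RNA of it per cell cannot be told apart.

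**Figure D2:**
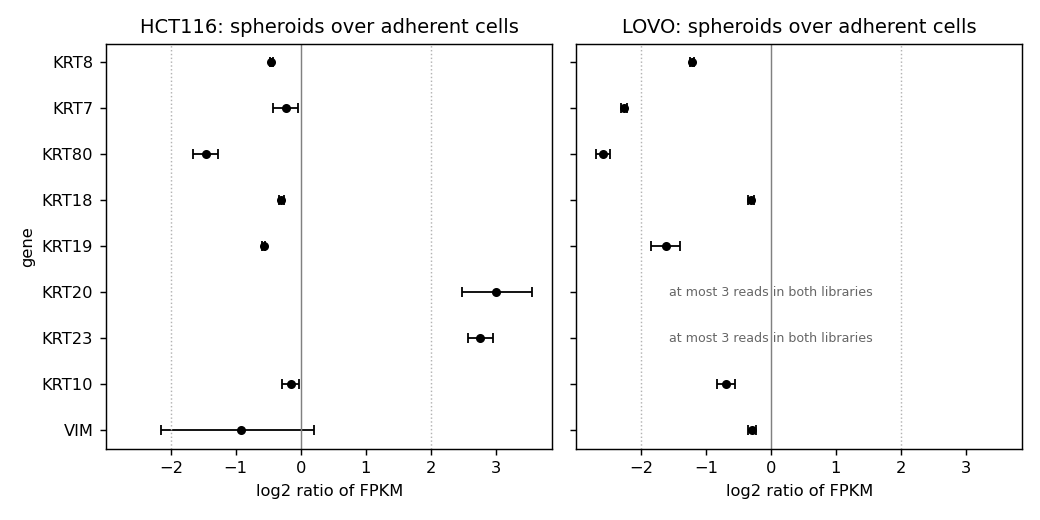
Log2 ratio of FPKM of spheroids to adherent cells for each gene in HCT116 (left) and LOVO (right), with 95% counting intervals from 1 library per group; dotted lines mark ratios of 2 and -2. KRT20 and KRT23 lie right of 2 in HCT116 (3.001 and 2.76) and have no ratio in LOVO, while KRT80 lies left of 0 in both (-1.46 and -2.58).

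By counting error alone, 2 members in HCT116 were higher and 6 lower, with VIM undecided, and in LOVO 7 of 7 were lower. This rule passes a large part of all genes. In HCT116 24.1% of the 23043 genes with more than 3 reads in a library were higher and 23.7% lower by it, and in LOVO 31.4% and 31.3% of 21692. The median log2 difference of the 9 members was -0.20 in HCT116 and -0.67 in LOVO, beside -0.03 and -0.06 over all genes compared. The log2 differences of the 6 members lower in both lines stand side by side as follows. KRT80 had -1.26 in HCT116 and -2.46 in LOVO, KRT7 -0.20 and -2.24, KRT8 -0.45 and -1.20. KRT19 had -0.57 and -1.44, KRT18 -0.30 and -0.30, KRT10 -0.15 and -0.66. KRT7 had the widest gap between the lines among these, a difference that was not tested because each line had 1 library per form.

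A limma fit over the 4 libraries, with cell line and growth form as terms, used the lines in place of replicates and left 1 residual degree of freedom. It called 0 of 14429 genes different between the forms at an adjusted p under 0.05 (0.0% higher and 0.0% lower), with 1545 genes under an unadjusted p of 0.05 and a smallest adjusted p of 0.462. The members nearest to a call were KRT80, with a difference of -1.86 (SE 0.363, limma adjusted p = 0.462), and KRT19, with -1.01 (SE 0.327, limma adjusted p = 0.462). Both were lower in spheroids of both lines, and these 2 were the members under 0.05 before adjustment. KRT20 and KRT23, which were read in 1 line only, had limma adjusted p of 0.491 and 0.488. The fit draws the variance of each gene toward that of genes of like level. Its p-values therefore do not rest on the gene's own disagreement between the lines alone. KRT18, at -0.30 in both lines, had an SE of 0.279 and was not called. No difference between the forms is shown by this fit.

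The second question is how the lines differed in the same growth form. Among adherent cells, KRT7, KRT80 and VIM were higher in LOVO and KRT19, KRT23, KRT8, KRT18 and KRT20 were higher in HCT116. VIM was 180-fold higher in adherent LOVO cells (95% counting interval 120 to 285 from 23 reads in HCT116), KRT7 37.0-fold higher (34.0 to 40.4) and KRT80 5.38-fold higher (5.01 to 5.78). KRT19 was 54.2-fold lower in LOVO (50.05 to 58.7), KRT8 3.02-fold lower (2.98 to 3.07) and KRT18 2.08-fold lower (2.02 to 2.14). KRT23, with 2 reads in LOVO, was 112-fold lower with an interval of 30.7 to 931, and KRT20, with 1 read, was 30.8-fold lower with an interval of 5.18 to 1251. KRT10 differed least, at 1.17-fold higher. Past a log2 difference of 2, 3 members were higher in adherent LOVO cells (KRT7 5.01, VIM 5.05, KRT80 2.32) and 2 were lower (KRT19 -5.67, KRT23 -2.35), against 5.26% and 5.59% of genes. Past 1, the counts were 3 higher and 4 lower, against 17.4% and 16.4% of genes. For KRT7, 59 of the 14429 genes lay further up, for VIM 56, and for KRT19 6 lay further down. VIM passed the filter of 1 FPKM only through its levels in LOVO.

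Among spheroids the contrast kept its direction for the members other than KRT10. KRT19 and KRT8 lay further apart than among adherent cells, KRT7 and KRT80 lay nearer together, and these differences between the forms were not tested. KRT19 was 112-fold lower in LOVO spheroids than in HCT116 spheroids (95% counting interval 98.3 to 128), and its log2 difference of -6.54 was the lowest of all 14429 genes. KRT8 was 5.12-fold lower (5.01 to 5.22) and KRT18 again 2.08-fold lower (2.02 to 2.15). KRT23 and KRT20, with 2 reads each in LOVO, had ratios of 852 (235 to 7043) and 138 (37.9 to 1149) in favour of HCT116. VIM was 279-fold higher in LOVO spheroids (152 to 583), KRT7 9.06-fold higher (8.16 to 10.1) and KRT80 2.49-fold higher (2.17 to 2.86). Past 2, 2 members were higher (KRT7 2.97, VIM 4.90) and 4 lower (KRT8 -2.34, KRT19 -6.54, KRT20 -3.003, KRT23 -4.87), against 5.68% and 4.71% of genes. Past 1, the counts were 3 and 5, against 17.7% and 15.0% of genes. The median over the members was -0.91 among adherent cells and -1.05 among spheroids, beside 0.07 and 0.04 over all genes.

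In the limma fit, with the growth forms in place of replicates, 3564 of 14429 genes were called different between the lines, 12.6% higher and 12.1% lower in LOVO. Of the 9 members, 3 were called higher in LOVO. VIM had a difference of 4.97 (SE 0.245, limma adjusted p = 0.00369), KRT7 of 3.99 (SE 0.527, limma adjusted p = 0.0129) and KRT80 of 1.72 (SE 0.363, limma adjusted p = 0.0328). Another 3 were called lower in LOVO. KRT19 had a difference of -6.10 (SE 0.327, limma adjusted p = 0.00388), KRT8 of -1.97 (SE 0.343, limma adjusted p = 0.0219) and KRT23 of -3.61 (SE 0.633, limma adjusted p = 0.0220). KRT18 (-1.05), KRT20 (-1.95) and KRT10 (-0.04) were not called, with limma adjusted p of 0.0550, 0.0654 and 0.923. The calls for KRT8 and KRT80 were lost when growth form was left out of the fit (limma adjusted p = 0.0724 and 0.24). In simulated data, scored for the difference between growth forms only, the fit also made false calls among genes with few reads. KRT23 had 2 reads in each LOVO library and VIM had 23 and 10 in HCT116. Each of these genes passed the filter of 1 FPKM only through the other line. These p-values rest on how far the difference between the lines disagreed between the growth forms. That disagreement is taken from the gene itself and, through the variance trend, from genes of like level. KRT18, at -1.05 in both forms, had an SE of 0.279, and KRT80, at 2.32 among adherent cells and 1.12 among spheroids, had 0.363. The spread between cultures does not enter these p-values. The low or absent epithelial markers of the libraries labelled LOVO stand beside all of these calls.

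Levels were also summed over all protein-coding keratins of each type, since the chains pair. The type I sum was 1104 FPKM in adherent and 832 FPKM in spheroid HCT116 cells, against 653 FPKM in adherent and 216 FPKM in spheroid LOVO cells, and in the same order the type II sum was 590, 430, 494 and 144 FPKM. Type I exceeded type II in every library, by 1.87, 1.94, 1.32 and 1.50 times. This direction rests on the lengths used, since by reads without length, an alternative added after seeing the data, the type I sum was 0.709, 0.744, 0.788 and 0.811 of the type II sum. Both sums were lower in spheroids, so that the total over all keratins was 0.745 of the adherent level in HCT116 and 0.314 in LOVO (0.754 and 0.362 as TPM).

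The chains that made up these sums differed between the lines. In HCT116, KRT8 was 96.7% of the type II level in adherent cells and 97.2% in spheroids, whereas in LOVO it was 38.2% and 56.8%, with KRT7 at 49.0% and 35.0% and KRT80 at 11.4% and 6.58%. By reads without length KRT8 exceeded KRT7 in adherent LOVO cells too, at 23301 against 17761 reads. On the type I side KRT19 made up 73.2% and 65.2% in HCT116 but 2.29% and 2.25% in LOVO. KRT18 made up 22.9% and 24.8% in HCT116 and 18.7% and 45.8% in LOVO. The type I chain that filled the LOVO sum was not a member. KRT17, a keratin of basal and injured epithelia, stood at 484 FPKM in adherent and 88.8 FPKM in spheroid LOVO cells, 74.1% and 41.1% of the type I level, against 0.314 and 0.361 FPKM in HCT116. The members therefore held 99.1% and 97.8% of the total keratin level in HCT116 but 56.9% and 73.1% in LOVO. Without KRT17, the total in LOVO spheroids was 0.409 of that in adherent LOVO cells.

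**Figure D3:**
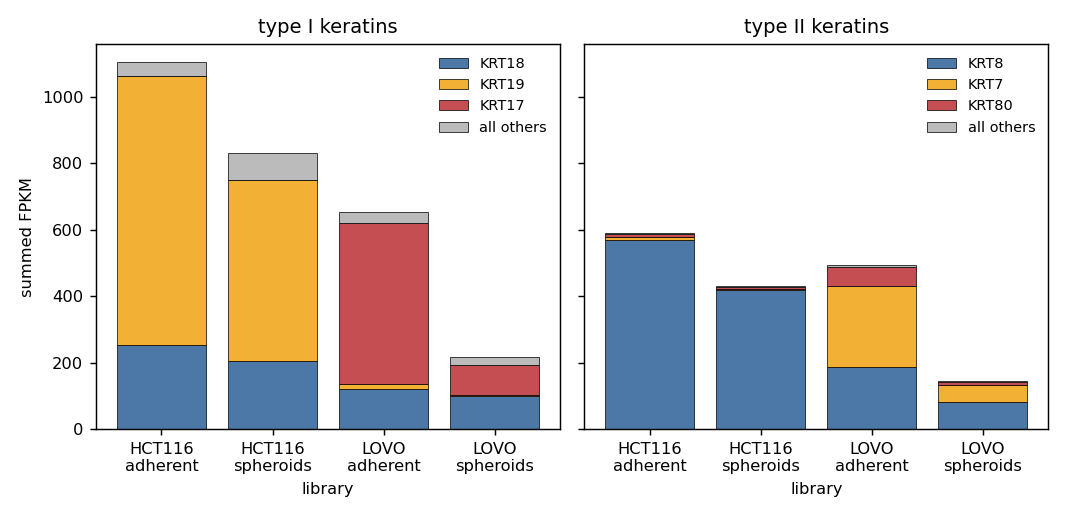
Summed FPKM of type I keratins (left) and type II keratins (right) in each of the 4 libraries, split into the 3 leading chains and all others. KRT19 fills most of the type I bar in HCT116 (73.2% and 65.2%) and KRT17 the largest share in adherent LOVO cells (74.1%), and KRT7 takes 49.0% of the type II bar there.

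The ratio of KRT8 to KRT18, the chains that pair in simple epithelia, was 2.25 in adherent HCT116 cells (95% counting interval 2.22 to 2.29) and 2.03 in HCT116 spheroids (1.99 to 2.07). It was 1.55 among adherent cells of LOVO (1.51 to 1.59) and 0.826 among its spheroids (0.801 to 0.852), the only library with more KRT18 than KRT8 per length. By reads without length KRT8 exceeded KRT18 there too, by 1.77 times. The ratio in spheroids was 0.899 of the adherent ratio in HCT116 and 0.533 of it in LOVO. KRT8 and KRT18 lie head to head on opposite strands of chromosome 12 and share 525 exonic bases in the annotation, and whether the counting used strand is not given in the sources used here. VIM was 0.0130% and 0.00934% of the summed level of the 9 members in HCT116, and 5.69% and 10.9% in LOVO. The larger share in LOVO spheroids stood beside lower keratin levels, and VIM itself was 1.22-fold lower there.

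The members sit in 2 gene clusters, apart from VIM on chromosome 10. KRT19, KRT20, KRT23 and KRT10 lie in the type I cluster of chromosome 17. KRT7, KRT8 and KRT80 lie in the type II cluster of chromosome 12, together with KRT18, the type I gene that sits at its edge. KRT20 (chr17:40875941-40885227) and KRT23 (chr17:40922696-40937634) are 37.5 kb apart on the minus strand, and KRT80 (chr12:52168996-52192000) and KRT7 (chr12:52232520-52252186) are 40.5 kb apart, all in GRCh38.

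Other genes of the type I cluster were examined because KRT20 and KRT23 lie in it. Of 28 protein-coding keratins on chromosome 17, 21 had more than 3 reads in an HCT116 library. By counting error 12 were higher in spheroids, 3 were lower (KRT19, KRT10 and KRT15) and 6 were undecided, where 24.1% of all genes were higher and 23.7% lower by the same rule. Without KRT20 and KRT23, 10 of 19 were higher. The shares over all genes cover every read level above 3, and no share at like read levels was taken. KRT13, a chain of stratified mucosa, stood at 0.404 FPKM (24 reads) in adherent HCT116 cells and 5.66 FPKM (277 reads) in HCT116 spheroids. KRT14, a chain of basal epithelial cells, stood at 0.172 FPKM (8 reads) and 2.45 FPKM (94 reads), KRT16, which marks stressed epidermis, at 0.297 and 1.13 FPKM, and KRT32, a hair keratin, at 1.07 and 1.84 FPKM. The remaining 6 that were higher stayed below 1 FPKM in all libraries.

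**Figure D4:**
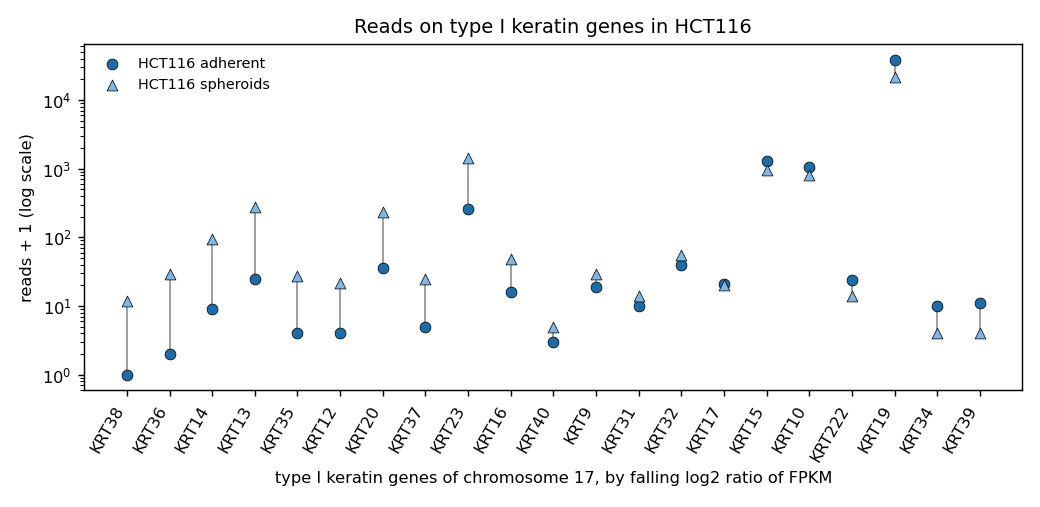
Reads (plus 1, log axis) on the 21 type I keratin genes of chromosome 17 with more than 3 reads in either HCT116 library, adherent cells as circles and spheroids as triangles. KRT20, KRT23, KRT13 and KRT14 have the spheroid point well above the adherent one (231 against 35, 1423 against 255, 277 against 24 and 94 against 8 reads), while KRT19 has the adherent point higher (38478 against 21315).

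The type II cluster was counted by the same rule. Of 27 keratins on chromosome 12, 8 had more than 3 reads in an HCT116 library. Of these, 5 were lower in spheroids (KRT8, KRT18, KRT7, KRT80 and KRT86), 1 was higher and 2 were undecided. Over all genes 23.7% were lower and 24.1% higher in HCT116. KRT86 was the only one of the 5 that is not a member. Of the other keratins there that are not members, KRT5 was higher, and KRT81 and KRT3 were undecided. In LOVO 8 of 8 keratins of chromosome 12 with more than 3 reads in a library were lower in spheroids, where 31.3% of all genes were. KRT8, KRT18, KRT7 and KRT80 are the members among them. The others included KRT86 (3.38 and 1.62 FPKM), KRT81 (1.53 and 0.747 FPKM) and KRT4, which had 113 reads in adherent cells and 0 in spheroids. Type I genes of chromosome 17 in LOVO were split, with 5 higher (KRT15, KRT16 and KRT14 among them), 3 lower (KRT19, KRT17 and KRT10) and 1 undecided of 9. Across the genome, 9 of the 47 protein-coding keratins that are not members reached 1 FPKM in a library, and 11 had 0 reads in all 4.

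The proteins that filaments join were measured beside them. Of 5 genes of the desmosome, the junction that anchors keratins (DSG2, DSC2, JUP, PKP2 and PKP3), none lay past a log2 difference of 2 in either line. Their median was -0.17 in HCT116 and -0.57 in LOVO, and in LOVO spheroids 4 of 5 were lower beyond counting error, DSC2 being undecided. By the same rule 31.3% of the 21692 genes with more than 3 reads in a LOVO library were lower. By sign alone, 53.5% of all genes compared had a difference below 0 in LOVO. The furthest were PKP3, a plakophilin of the desmosome plaque, at -1.09 (28.4 and 12.8 FPKM in the adherent and spheroid forms of LOVO) and DSC2, a desmosomal cadherin, at 0.70 in HCT116 (3.06 and 5.59 FPKM). Of 7 linkers that tie filaments to junctions and to other fibres, none lay past 1 in either line, with medians of 0.18 and 0.09. EVPL, envoplakin, was furthest in HCT116 at 0.89, followed by DST, dystonin, at 0.74. In LOVO FAM83H, which binds keratins, was furthest at -0.50, followed by PLEC, plectin, at -0.46. Of 15 other intermediate filament genes, 10 were compared, with medians of 0.09 in HCT116 and -0.36 in LOVO. In HCT116 none was past 2, and LMNA, which encodes the nuclear lamins A and C, was furthest at -1.36 (116 FPKM in adherent cells and 44.5 in spheroids), followed by DES, the muscle type III protein desmin, at 1.33 (2.57 and 7.97 FPKM). In LOVO, NES, the type VI protein nestin, was past 2 at 2.63 (1.01 FPKM in adherent cells and 11.4 in spheroids), and NEFH, a neurofilament chain, followed at -1.41 (12.6 and 4.09 FPKM). The limma fit called none of these genes between the forms.

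For each member, the gene with the nearest profile over the 4 libraries was found by Euclidean distance between centred log2(FPKM + 1) values. The nearest to KRT80 was SLC1A4 (3.10 and 0.978 FPKM in adherent and spheroid HCT116 cells, 16.8 and 2.11 FPKM in LOVO) and the next was SLC3A2, both of which encode amino acid transport proteins. The nearest to KRT7 was FOXE1 (0.0142, 0.0172, 29.8 and 6.65 FPKM), to KRT8 PRAG1, to KRT18 CAP1 and to KRT19 AKAP12. The nearest to KRT23 was SOX4 (42.8, 213, 11.7 and 9.67 FPKM), a transcription factor, and to KRT20 an RNU7-170P row. The nearest to KRT10 was PTER and to VIM CLMP (0.529, 0.502, 49.1 and 42.5 FPKM), a junction protein. Second nearest were HPD to KRT7, SLC25A4 to KRT8, BLOC1S2 to KRT18, PTMAP2 to KRT19, LINC02458 to KRT20, DDIT4L to KRT23, SPIRE1 to KRT10 and NNT to VIM. With 4 libraries these distances are descriptions.

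Near-identical copies could have taken reads from KRT8 and KRT18. The 50 KRT8 pseudogene rows held reads equal to 0.363% to 2.99% of those on KRT8, the 67 KRT18 pseudogene rows 0.379% to 0.875% of those on KRT18, and the 5 KRT19 pseudogene rows held none. The antisense row KRT7-AS shares 282 exonic bases with KRT7 and held 20, 9, 312 and 113 reads against 545, 382, 17761 and 4146 on KRT7. VIM-AS1, which shares 641 exonic bases with VIM, held 4, 7, 17 and 38 reads, so that in HCT116, with 23 and 10 reads on VIM, reads of the 2 genes cannot be told apart.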

How the data were processed

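RNA had been extracted with a column kit and made into libraries with a SMARTER mRNA-Seq kit. The authors deposited 1 table of FPKM values, normalised by gene length and library size, for 58735 genes and 4 libraries. The aligner and counter are not given in the sources used here. The submitters' processing notes name the mouse builds GRCm38 and mm10, while all 58735 gene identifiers, starts and ends matched GENCODE 29 on the human build GRCh38, which is used for coordinates. FPKM multiplied by gene length gave whole reads for 100% of values above 0 within 0.01 of a read, up to 1 scale per library, and these recovered reads gave the depth and the exact (Clopper-Pearson) 95% counting intervals of ratios, computed in scipy 1.17.1.

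The 9 members, the gene lists and the comparisons were chosen with earlier results of these data known. Genes with a mean of at least 1 FPKM over the libraries were compared (14429). Differences were taken on log2(FPKM + 1), with a pseudocount of 1, and counted past 2 or past 1. The study's methods used 2 for a log fold change from edgeR and also set a p-value limit, which was not applied here. Such differences understate the change of low genes. With 1 library per group there is no replicate check. The lmFit and eBayes functions of limma 3.58.1 (R 4.3.3, variance trend on) were run on the same values with line and growth form as terms and Benjamini-Hochberg adjustment over all genes compared, with 0.05 as threshold. A count test was not used, since the deposited unit is FPKM. The limma step was tested on simulated data for the difference between growth forms only, where it also made false calls among genes with few reads. No fold was given where both libraries had at most 3 reads.

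Genes named beside the members were every other keratin that reached 1 FPKM, genes of the marker lists, the 2 furthest of each list in each line, rows that overlap or copy a member, and the 2 nearest profiles of each member. Alternatives were pseudocounts of 0.1 and 0.01, TPM, a TMM-style scaling, median centring, no filter, a mean FPKM of at least 5, protein-coding genes only, and fits without the covariate. Promoters came from RefSeq in GRCh38.p14, in which 4 of the 9 members had an entry.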

Additional observations from a re-analysis of the deposited data

Results flagged for a closer look

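Of the genes named above, 5 differed in opposite directions between growth forms in the 2 lines, each by more than counting error, with 1 library per group, and the difference between the lines was not tested. KRT15, a type I keratin of basal epithelia, had a difference of log2(FPKM + 1) of spheroids minus adherent cells of -0.14 in HCT116 (8.88 and 7.99 FPKM in adherent cells and spheroids) and of 0.37 in LOVO, where it had 3 and 46 reads. EPCAM, the epithelial marker, had -0.11 in HCT116 and 0.37 in LOVO, where it had 42 and 76 reads. COL1A1, a fibroblast collagen, had 1.34 in HCT116 and -0.62 in LOVO. FAM83H had 0.48 in HCT116 and -0.50 in LOVO. NEFH had 0.13 in HCT116, with 0 FPKM in adherent cells and 0.0944 FPKM in spheroids, and -1.41 in LOVO. None of the 9 members was among these.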

How the results depend on the processing

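The 34 log2 differences of members that could be compared kept their direction under the 5 alternatives of pseudocount and scale (170 of 170 values). Counted past 1 rather than 2, the number of members lower in spheroids was 1 in HCT116 (0 at 2) and 4 in LOVO (2 at 2), and the number lower in adherent LOVO than in adherent HCT116 cells was 4 (2 at 2). The pseudocount set the size of differences that rest on few reads: at 1 and at 0.01, VIM in LOVO spheroids against HCT116 spheroids differed by 4.90 and 8.01, and KRT23 by -4.87 and -9.37. TPM moved the median of all genes by 0.15 between the LOVO forms and by 0.225 between the spheroids of the lines, and raised the share of genes past 2 that were higher in LOVO spheroids than in adherent LOVO cells from 65.7% to 77.9%. A pseudocount of 0.01 raised the HCT116 counts past 2 from 29 higher and 73 lower to 221 and 237. Between the lines, limma called 1887 genes at a mean of at least 5 FPKM, where fewer genes are tested, against 3564. Over 10 settings, KRT7, KRT19, KRT23 and VIM were called in all 10 (highest limma adjusted p = 0.0414), KRT8 and KRT80 in 9, KRT18 in 2 and KRT10 in 0, and KRT20 in 3 of 9. Between the growth forms limma called 0 genes in all 10. As reads without length, the ratio of KRT8 to KRT18 was 4.82, 4.34, 3.31 and 1.77 in adherent and spheroid HCT116 and in adherent and spheroid LOVO cells, in the same order as by FPKM but above 1 in every library, and the type I sum fell from above to below the type II sum in all 4, a check chosen after seeing the data. Growth forms were paired within lines only through the cell line term of limma, and with 1 library per group no replicates could be paired. Depth limits KRT20 and KRT23 in LOVO and VIM in HCT116, each with at most 23 reads.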

Other observations

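The nuclear lamins, intermediate filament proteins of the nuclear envelope, had lower levels as spheroids in both lines. They were singled out after their values were seen. LMNA stood at 116 FPKM in adherent HCT116 cells and 44.5 FPKM in HCT116 spheroids, and at 100 and 56.6 FPKM in LOVO. LMNB1 stood at 23.0 and 8.62 FPKM in HCT116 and at 40.0 and 19.7 FPKM in LOVO, and LMNB2 at 81.9 and 36.9 FPKM in HCT116 and at 35.9 and 24.1 FPKM in LOVO. The 3 log2 differences lay between -1.36 and -1.13 in HCT116, and in LOVO between -0.99 and -0.56, each past counting error, and limma called none between the forms. Nestin (NES), found in progenitor cells, and BFSP1, a filament protein of the lens, had higher levels as spheroids in both lines, at 8.56 and 20.2 FPKM and at 5.62 and 11.1 FPKM in adherent HCT116 cells and HCT116 spheroids, and at 1.01 and 11.4 FPKM and at 2.17 and 5.62 FPKM in LOVO.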
